A study of Homo sapiens with 24 samples.

Results

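Splicing of the DNA mismatch repair genes MLH3, MSH3, MSH6, PMS1 and PMS2 was examined in HCT116 cells, a mismatch-repair-deficient colon carcinoma line, with and without the splicing modulator E7107. Every measured row on the strand and within the GRCh37 (hg19) span of these 5 genes was taken, which gave 881 of 1823643 rows. Of the 881 rows, 250 were exon–intron boundaries and 631 were spliced junctions. By gene, there were 130 rows in MLH3, 192 in MSH3, 144 in MSH6, 241 in PMS1 and 174 in PMS2.

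The 24 samples were bulk poly(A)-selected RNA-seq libraries in 4 groups of 6: WT or Y36C cells, each treated with DMSO or with E7107. WT cells expressed a wild-type PHF5A transgene and Y36C cells a transgene with the Y36C substitution, each introduced by lentivirus into parental HCT116 cells, whose own PHF5A gene remained in both lines. PHF5A is a subunit of SF3b, the part of the U2 snRNP that E7107 binds. Treatment with E7107 or with the vehicle DMSO lasted 6 h and the labels give no dose. The labels do not say whether the 6 samples of a group were separate cultures, so p-values measure the spread between these samples, which may be technical.

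Mismatch repair removes bases wrongly inserted during DNA replication. MutS heterodimers recognize the mismatch: MSH6 is the variable subunit of the dimer for single-base mismatches and short loops, and MSH3 that of the dimer for larger loops. MutL heterodimers then act downstream, where PMS2 carries the endonuclease that nicks the new strand, MLH3 forms a dimer best known from meiotic crossing over, and PMS1 forms a dimer whose role in repair is less clear. Tumours that lack mismatch repair accumulate changes in short repeats, known as microsatellite instability.

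Each value is a percent spliced in (PSI): the share of the reads at a splice site that use the given junction or cross the given exon–intron boundary. A boundary PSI is a measure of intron retention at that end of the intron. PSI gives no expression level, and read totals behind a value are unknown, so no counting interval can be given. Exons and introns are numbered along the Ensembl canonical transcript of each gene.

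The genes lie at chr14:75480472-75518235 on the minus strand (MLH3, 13 exons), chr5:79950471-80172634 on the plus strand (MSH3, 24 exons), chr2:47922669-48037202 on the plus strand (MSH6, 10 exons), chr2:190648811-190742355 on the plus strand (PMS1, 13 exons) and chr7:6010556-6048761 on the minus strand (PMS2, 15 exons). FBXO11 overlaps MSH6 and ORMDL1 overlaps PMS1, each on the opposite strand.

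The sequences of the introns and exons on which the results turn are given first, from the GRCh37 assembly and read 5′ to 3′ on the strand of the gene. For the introns, the last 50 bases are in lower case and the first 10 bases of the next exon in capitals. PMS2 intron 14 and MSH6 intron 8 had the largest rise in retention in WT cells within their gene and PMS2 intron 3 and MSH6 intron 1 the smallest. Retention fell at PMS1 intron 10 and at the 3′ boundary of PMS1 intron 9.
PMS2 intron 14, chr7:6013164-6013223, minus strand: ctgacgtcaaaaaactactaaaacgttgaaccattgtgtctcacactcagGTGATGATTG
PMS2 intron 3, chr7:6043414-6043473, minus strand: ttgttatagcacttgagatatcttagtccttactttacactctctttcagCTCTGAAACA
MSH6 intron 8, chr2:48033541-48033600, plus strand: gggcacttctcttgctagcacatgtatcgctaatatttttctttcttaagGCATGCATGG
MSH6 intron 1, chr2:48018016-48018075, plus strand: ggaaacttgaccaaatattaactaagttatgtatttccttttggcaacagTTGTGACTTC
PMS1 intron 10, chr2:190732475-190732534, plus strand: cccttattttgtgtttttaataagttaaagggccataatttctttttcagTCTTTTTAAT
PMS1 intron 9, chr2:190728419-190728478, plus strand: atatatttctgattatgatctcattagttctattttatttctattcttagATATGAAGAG

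MLH3 exons 5 and 7, PMS1 exon 7 and PMS2 exon 4, whose skipping is described with the exon junctions, are shown in capitals with 20 bases of intron on each side in lower case. The lengths of MLH3 exons 5 and 7 and of PMS1 exon 7 are multiples of 3, so that skipping keeps the reading frame, while that of PMS2 exon 4 is not.
MLH3 exon 7, chr14:75500102-75500213, minus strand: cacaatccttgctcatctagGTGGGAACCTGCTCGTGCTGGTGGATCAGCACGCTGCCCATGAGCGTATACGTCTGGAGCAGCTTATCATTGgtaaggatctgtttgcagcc
MLH3 exon 5, chr14:75506594-75506738, minus strand: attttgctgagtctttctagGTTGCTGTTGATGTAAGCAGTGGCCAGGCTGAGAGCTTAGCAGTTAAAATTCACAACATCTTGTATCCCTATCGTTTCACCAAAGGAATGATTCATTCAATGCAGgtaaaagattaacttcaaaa
PMS1 exon 7, chr2:190717361-190717523, plus strand: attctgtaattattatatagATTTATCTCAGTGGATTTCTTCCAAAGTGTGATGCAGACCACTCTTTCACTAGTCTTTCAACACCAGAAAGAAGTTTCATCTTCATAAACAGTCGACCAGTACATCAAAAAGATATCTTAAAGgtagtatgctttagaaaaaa
PMS2 exon 4, chr7:6043301-6043443, minus strand: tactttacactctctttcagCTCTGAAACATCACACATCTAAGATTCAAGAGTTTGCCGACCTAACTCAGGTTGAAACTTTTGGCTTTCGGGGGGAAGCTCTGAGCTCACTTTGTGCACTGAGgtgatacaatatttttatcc

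The genes differed in how many of their splice sites had reads, which sets what could be tested. In WT E7107, MSH3 had reads at 17 to 24 of its 41 listed reference boundaries per sample (median 21.5), and none of the 41 had reads in all 6 samples. In the other groups 37 to 41 of these 41 boundaries had reads in each sample. MLH3 had reads at 15 to 20 of 24 boundaries in WT E7107 (median 19) and at all 24 in every other sample. MSH6 and PMS1 had reads at all 18 and 24 boundaries in all samples, and PMS2 had at least 27 of 28. Over all genes, splice sites with reads numbered 281164 to 283548 per sample in WT E7107 and 328458 to 340081 in the other 3 groups. Whether the missing reads reflect less RNA of MSH3 and MLH3 was not tested, and in bulk samples fewer cells and less RNA per cell cannot be told apart.

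**Figure D1:**
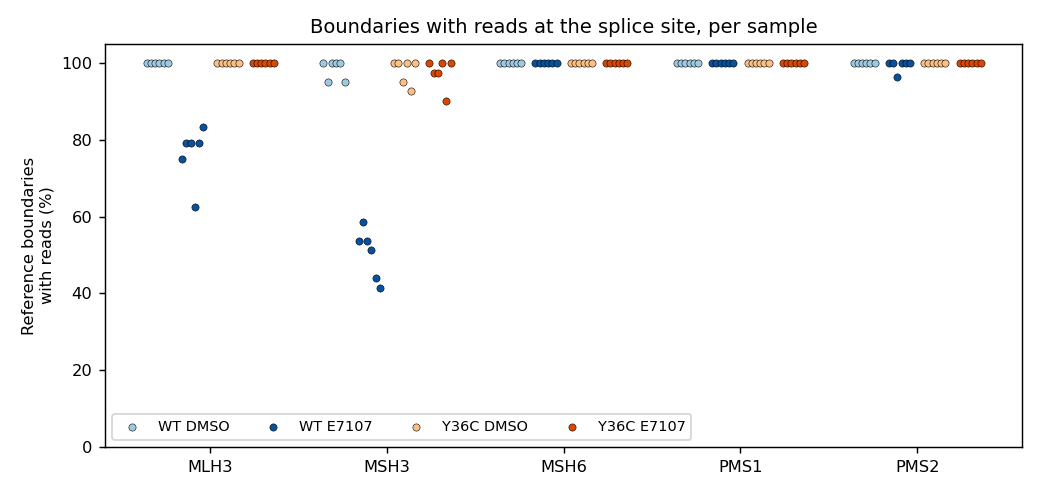
Share of the exon–intron boundaries of the reference transcript that had reads (y axis, percent) for each gene (x axis), with 1 point per sample and colours for the 4 groups of 6. The WT E7107 samples of MLH3 (15 to 20 of 24) and MSH3 (17 to 24 of 41) lie below all other samples of those genes, while MSH6 and PMS1 are complete in all 24 samples.

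Tests used limma, fitted to all rows of the files after PSI had been turned into natural-log odds, and a row was called at a Benjamini–Hochberg adjusted p of 0.05 or less. A row entered a test if its splice site had reads in every sample compared and its PSI was above 0 in at least 6 of them. A boundary near 0 in DMSO could therefore pass only through the treated samples, and the rows tested are not all rows of a gene. Below, log odds changes are given with their standard error (SE).

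In WT cells, E7107 raised intron retention in PMS2 and MSH6 and lowered it at intron 10 and the 3′ boundary of intron 9 of PMS1. Of the 250 boundary rows of the 5 genes, 43 passed the filter in WT cells, and 22 rose while 3 fell. Of all boundary rows tested, 59.8% rose and 4.62% fell. The 22 that rose were 11 of 17 in MSH6, 10 of 17 in PMS2 and 1 of 5 in PMS1, and all 3 that fell were in PMS1. None of the 4 tested boundaries of MLH3 was called, with 0 also at an unadjusted p under 0.05, and none of MSH3 passed the filter. Of the 631 spliced rows, 107 were tested, of which 8 rose and 28 fell, against 6.85% and 35.2% of all spliced rows. The 28 that fell were all junctions of reference introns: 13 in MSH6, 12 in PMS2, 2 in PMS1 and 1 in MLH3.

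In Y36C cells, E7107 changed few of these boundaries. Of 47 tested, 6 rose and 0 fell, with 10 at an unadjusted p under 0.05, and of all boundary rows 17.4% rose and 0.835% fell. Chosen after their values were seen, the 6 were both boundaries of MLH3 intron 1, the 5′ boundaries of PMS1 intron 6, MSH6 intron 7 and PMS2 intron 12, and the 3′ boundary of PMS2 intron 7. Of 179 spliced rows tested, 8 rose and 12 fell, against 6.23% and 11.9% of all spliced rows. All 8 that rose skipped an exon.

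**Figure D2:**
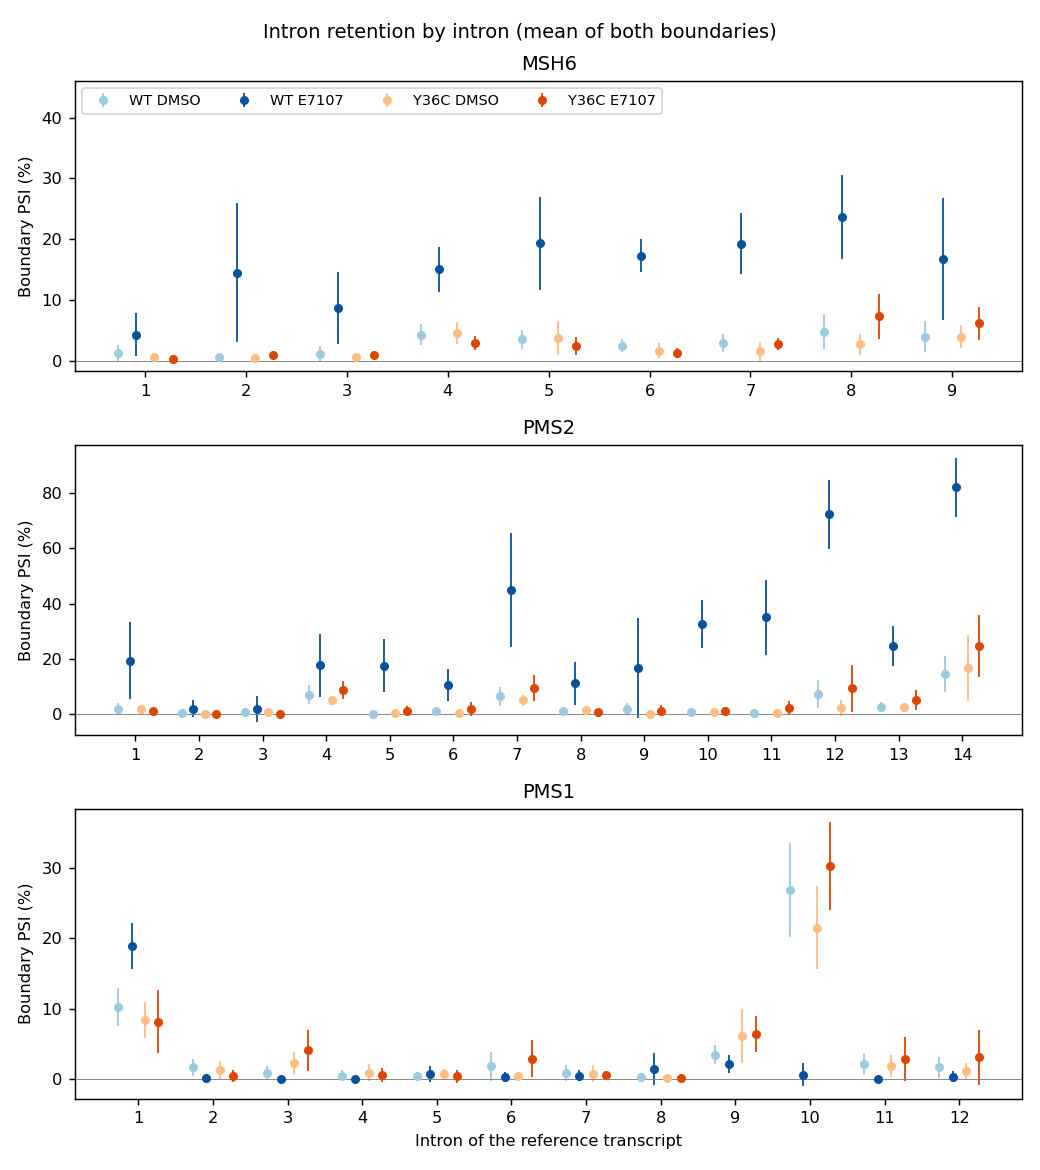
Boundary PSI of each intron (y axis, percent, the mean of its 5′ and 3′ boundary, with a separate scale in each panel) along the reference transcripts of MSH6, PMS2 and PMS1 (x axis, intron number). Points are means and bars SD over the samples with reads at both boundaries, 6 in each group except PMS2 intron 11 in WT E7107 with 5. WT E7107 is highest at every intron of MSH6 and of PMS2, while PMS1 intron 10 falls from 26.8% in WT DMSO to 0.641% in WT E7107.

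PMS2, whose product is the endonuclease subunit of the main MutL dimer, had the highest mean retention in WT E7107 among MLH3, MSH6, PMS1 and PMS2. Most of its splice sites have near-identical copies elsewhere, described below. Its mean boundary PSI over the 13 of 14 introns with reads at both ends in all 24 samples was 3.52% ± 0.63 in WT DMSO and 27.2% ± 5.2 in WT E7107 (SD, n = 6). The samples ranged from 2.52% to 4.29% (median 3.58%) and from 21.7% to 34.4% (median 26.3%), so the groups did not overlap. In Y36C cells the same mean was 2.85% ± 1.06 in DMSO and 4.98% ± 1.17 in E7107, with ranges of 1.97% to 4.95% (median 2.50%) and 3.61% to 6.36% (median 4.84%), which overlapped.

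The last intron, intron 14 of 4045 bases, was the most retained in WT E7107. Its 3′ boundary PSI was 0% to 29.4% in WT DMSO (median 17.7%) and 79.4% to 100% in WT E7107 (median 83.8%), a log odds change of 4.47 (SE 0.84, adjusted p = 0.00071). Its 5′ boundary went from 0% to 33.3% (median 15%) to between 60% and 100% (median 78.2%), with a log odds change of 3.78 (SE 0.79, adjusted p = 0.0016). At both ends every WT E7107 sample lay above every WT DMSO sample. In Y36C cells the 3′ boundary was 4.35% to 29.4% in DMSO (median 15.3%) and 11.1% to 50% in E7107 (median 33.0%), and neither boundary passed the test, with log odds changes of 0.93 (SE 0.44, adjusted p = 0.19) at the 3′ end and -0.45 (SE 0.83, adjusted p = 0.79) at the 5′ end, where the mean PSI was 17.1% in DMSO and 17.9% in E7107. The difference between the genotypes passed at both ends, with an interaction of -3.54 (SE 0.96, adjusted p = 0.0050) at the 3′ end and -4.23 (SE 1.16, adjusted p = 0.0053) at the 5′ end. Intron 14 was also the PMS2 intron most retained without drug, at 14.5% ± 6.5 in WT DMSO and 16.7% ± 11.9 in Y36C DMSO.

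Intron 12 followed at 7.40% ± 5.0 in WT DMSO and 72.3% ± 12.6 in WT E7107, and both of its boundaries rose (adjusted p = 7.2e-05 and 9e-05). In Y36C cells its 5′ boundary also rose, from 0% to 6.06% in DMSO (median 0%) to 3.57% to 26.3% in E7107 (median 7.03%), a log odds change of 1.71 (SE 0.49, adjusted p = 0.035). That rise was smaller than in WT cells, with an interaction of -2.33 (SE 0.76, adjusted p = 0.018).

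At PMS2 introns 7, 10 and 11 the 3′ boundary had the higher values in WT E7107. The 3′ boundary of intron 11 was 0% to 4.88% in WT DMSO (median 0%) and 33.3% to 100% in WT E7107 (median 74.2%), and that of intron 10 went from 0% to 3.64% (median 0%) to between 38.1% and 62.5% (median 57.2%). Their log odds changes were 5.57 (SE 0.76, adjusted p = 5.3e-05) and 4.35 (SE 0.32, adjusted p = 2.5e-07). With a WT DMSO median of 0%, both passed the filter through the E7107 samples, and the size of these changes depends on the offset. Introns 7, 10 and 11 were chosen after their values were seen, so the values are a description. The 3′ boundary of intron 7 rose in both genotypes. It went from a median of 4.40% to 62.9% in WT cells (log odds change 3.36, SE 0.51, adjusted p = 0.00013) and from 4.91% to 12.8% in Y36C cells (0.96, SE 0.30, adjusted p = 0.044), and the rises differed (interaction -2.40, SE 0.60, adjusted p = 0.0024). Introns 2 and 3 of PMS2 stayed near 0: intron 3, of 179 bases, was at 0.614% ± 0.72 in WT DMSO and 1.92% ± 4.71 in WT E7107, where 5 of 6 samples were at 0.

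PMS2 has near-identical copies elsewhere on chromosome 7, the PMS2 pseudogenes, whose reads could be assigned to PMS2 or lost. Of 28 windows of 100 bases centred on the splice sites of PMS2, 18 had at least 1 other place in GRCh37 with 90 or more identical bases, against 0 of 112 windows in the other 4 genes. The sites of introns 12, 13 and 14 each had such a copy, and both windows at the ends of exon 4 had 13. Both windows of introns 12 and 14 and the 3′ windows of introns 10 and 11 had a copy identical in all 100 bases. The boundaries of introns 6 and 7 had none. Over the 9 PMS2 boundaries without a copy and with reads in all samples, mean PSI was 2.06% ± 1.05 in WT DMSO and 18.5% ± 7.6 in WT E7107, without overlap between 0.675% to 3.32% and 10.2% to 31.0%. In Y36C cells it was 1.83% ± 0.92 and 3.14% ± 1.42. The 18 boundaries with a copy gave 4.10% ± 0.47 and 33.9% ± 5.9 in WT cells. At the boundaries without a copy, the WT E7107 samples of PMS2 overlapped the gene means of MSH6, 11.8% to 20.1% (15.4% ± 3.1).

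MSH6, the mismatch-binding partner for base substitutions, was retained along its length in WT cells. Its mean boundary PSI over all 9 introns was 2.81% ± 0.44 in WT DMSO and 15.4% ± 3.1 in WT E7107 (SD, n = 6), with samples at 2.05% to 3.23% (median 2.94%) and 11.8% to 20.1% (median 15.1%). In Y36C cells it was 2.24% ± 0.43 in DMSO and 2.83% ± 0.60 in E7107, with overlapping samples at 1.63% to 2.85% (median 2.34%) and 2.06% to 3.69% (median 2.66%). Retention in WT E7107 was therefore spread over introns rather than carried by a single intron, between 4.31% at intron 1 and 23.7% at intron 8. FBXO11 lies over all 9 introns on the opposite strand, and whether its reads entered the MSH6 values was not tested.

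Intron 8, of 93 bases, rose most. Its 5′ boundary was 1.11% to 10.4% in WT DMSO (median 3.85%) and 14.6% to 38.5% in WT E7107 (median 24.0%), with a log odds change of 1.92 (SE 0.31, adjusted p = 0.00023). Its 3′ boundary went from 2.22% to 9.65% (median 4.19%) to between 17.2% and 33.3% (median 19.1%), a change of 1.55 (SE 0.22, adjusted p = 7.4e-05). In Y36C cells both boundaries of intron 8 were higher in E7107 but missed the threshold, at 0.97 (SE 0.33, adjusted p = 0.069) and 0.83 (SE 0.28, adjusted p = 0.066, and 0.00803 for the 3′ end with the replicate number as a block), and the interaction was not called at either end (adjusted p = 0.11 and 0.13).

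A difference between the genotypes was called at introns 4 to 7 of MSH6, among others. The 3′ boundary of intron 7 was 0.901% to 6.90% in WT DMSO (median 2.97%) and 21.1% to 37.8% in WT E7107 (median 25%), with a log odds change of 2.18 (SE 0.23, adjusted p = 7.3e-06). In Y36C cells it was 0% to 8.11% (median 2.21%) and 1.85% to 6.40% (median 2.78%), and the interaction was -1.76 (SE 0.47, adjusted p = 0.0046). The 3′ boundary of intron 5, named for the largest genotype difference, reached 10.7% to 33.3% in WT E7107 (median 23.8%) and 0% to 6.76% in Y36C E7107 (median 1.5%), with an interaction of -2.34 (SE 0.54, adjusted p = 0.0012). Over the gene, 10 of 17 boundaries had a lower change in Y36C than in WT cells and 0 a higher, against 42.3% and 6.63% of all boundary rows tested.

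MSH6 intron 1, of 7433 bases, was the least affected. Its 3′ boundary was 0% to 3.36% in WT DMSO (median 1.13%) and 0% to 13.8% in WT E7107 (median 8.44%), which overlapped, with a log odds change of 1.09 (SE 0.48, adjusted p = 0.083, and 0.0447 with the replicate number as a block).

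PMS1 had a lower mean retention in WT E7107, through intron 10. Its mean boundary PSI over all 12 introns was 4.22% ± 0.53 in WT DMSO and 2.10% ± 0.22 in WT E7107 (SD, n = 6), with samples at 3.44% to 4.87% (median 4.17%) and 1.82% to 2.42% (median 2.08%) and no overlap. In Y36C cells the mean was 3.79% ± 0.93 in DMSO and 4.98% ± 1.29 in E7107, with overlapping samples at 2.50% to 5.26% and 3.6% to 6.78%. Of the 24 PMS1 boundaries, 5 passed the filter in WT cells.

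The fall of the PMS1 mean in WT cells came from intron 10, of 3570 bases, which changed by -26.2 percentage points. The other introns changed by between -2.08 at intron 11 and 8.72 at intron 1. Intron 10 was retained in every sample without drug. Its 3′ boundary was 18.3% to 38.3% in WT DMSO (median 24.6%) and 0% in all 6 WT E7107 samples. Its 5′ boundary was 16.1% to 33.3% in WT DMSO (median 30.1%), and in WT E7107 it was 0% in 5 samples and 7.69% in the other. The log odds changes were -3.61 (SE 0.16, adjusted p = 5.2e-09) at the 3′ end and -3.23 (SE 0.39, adjusted p = 1.9e-05) at the 5′ end. With all WT E7107 values at 0%, the size at the 3′ end depends on the offset. It was -5.88 with an offset of 0.1 and -2.13 with an offset of 5, both called. The lack of spread in that group also lowers the SE, here and in the interaction.

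In Y36C cells PMS1 intron 10 stayed retained. The 3′ boundary was 15.2% to 33.3% in Y36C DMSO (median 24.9%) and 29.4% to 43.5% in Y36C E7107 (median 32.1%), with a change of 0.42 (SE 0.18, adjusted p = 0.15). The interaction was 4.04 (SE 0.25, adjusted p = 1.4e-11) at the 3′ end and 3.74 (SE 0.51, adjusted p = 2.5e-06) at the 5′ end.

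At the 5′ site of PMS1 intron 10, the spliced junction took a larger share. Its usage was 64.2% to 78.6% in WT DMSO (median 67.1%) and 92.3% to 100% in WT E7107 (median 100%), with a log odds change of 3.05 (SE 0.45, adjusted p = 0.00011). At the 3′ site, the junction from exon 9 to exon 11, which skips exon 10 of 486 bases, rose from 2.63% to 15.9% (median 7.68%) to between 7.69% and 30% (median 15.5%), which overlapped. Its log odds change was 0.90 (SE 0.35, adjusted p = 0.049), and it missed the threshold under 5 of 6 alternative settings (adjusted p from 0.0502 to 0.14; 0.045 under the other). Since PSI is a share of the reads left at a site, a fall shows a smaller share of unspliced reads and does not by itself show more splicing.

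**Figure D3:**
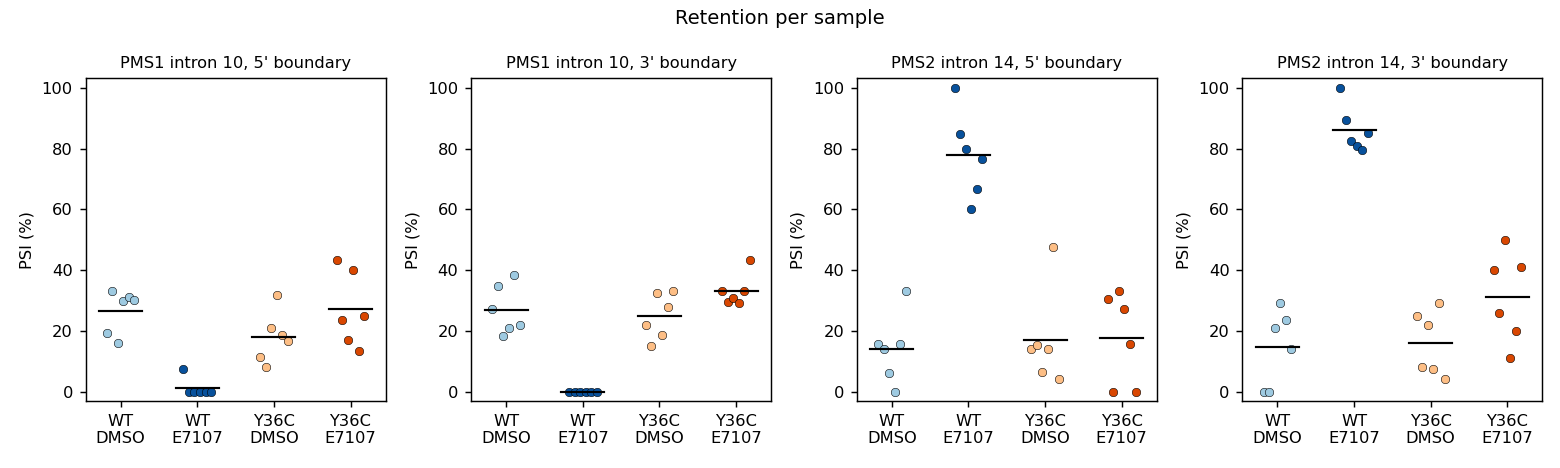
PSI of the 5′ and 3′ boundaries of PMS1 intron 10 and PMS2 intron 14 (y axis, percent) in each of the 6 samples of the 4 groups (x axis), with a bar at the group mean. Both introns were retained without drug, but in WT E7107 PMS1 intron 10 was at 0% in all 6 samples at the 3′ boundary while PMS2 intron 14 was at 79.4% to 100%.

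Elsewhere in PMS1 the 3′ boundary of intron 9 fell from 1.04% to 6.25% in WT DMSO (median 3.71%) to 0% in all 6 WT E7107 samples. Its log odds change was -1.51 (SE 0.20, adjusted p = 4.3e-05). It passed the filter through its DMSO values alone, so only a fall could be called. As at intron 10, the size depends on the offset and the lack of spread lowers the SE. The 5′ boundary of intron 9 was not called by limma (log odds change 0.11, SE 0.35, adjusted p = 0.83). The 5′ boundary of intron 1, next to the first exon, rose instead, from 9.52% to 28.1% (median 18.2%) to between 28.6% and 44.1% (median 39.2%), without overlap and with a change of 0.95 (SE 0.20, adjusted p = 0.0017). The 3′ boundary of the same intron was at 0% to 5.36% (median 0.806%) and 0% to 4.44% (median 0%) and did not pass the filter in WT cells. In Y36C cells, the 5′ boundary of intron 6 rose from 0% to 1.69% (median 0%) to between 2.13% and 11.8% (median 2.51%), a change of 1.18 (SE 0.30, adjusted p = 0.018).

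MLH3 showed retention of its first intron without drug. The 3′ boundary of MLH3 intron 1, of 1661 bases, was 33.3% to 46.2% in WT DMSO (median 41.0%) and 37.5% to 57.1% in Y36C DMSO (median 47.2%), and the 5′ boundary was 16.7% to 46.2% (median 34.3%) and 20% to 55.6% (median 36.7%). In Y36C E7107 the boundaries reached 53.8% to 88.9% (median 68.5%) and 55.6% to 76.9% (median 61.2%). Both rises were called, at 0.99 (SE 0.31, adjusted p = 0.047) for the 3′ end and 1.00 (SE 0.26, adjusted p = 0.022) for the 5′ end, where the lowest E7107 sample was level with the highest DMSO sample. In WT E7107 the 5′ site had reads in 0 samples and the 3′ site in 1, at 66.7%, so no WT comparison was made.

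Of the other MLH3 introns, 3 had reads at both ends in all 24 samples. Among these 3, intron 8 had the largest rise in WT cells, from 2.93% ± 2.0 to 10.7% ± 13.4, and its 3′ boundary did not pass the test (log odds change 1.07, SE 1.05, adjusted p = 0.44). Intron 12 had the smallest, at 1.96% ± 2.3 and 3.75% ± 5.9, where neither boundary passed the filter. Introns with fewer WT E7107 samples changed by between -8.96 points at intron 4 (4 samples) and 19.9 at intron 2 (5 samples) and are not ranked.

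MSH3, the partner for larger loops, had no boundary with reads in all 6 WT E7107 samples, so none was tested in WT cells. Its intron 6 was not analysed here, and introns 14, 16 and 19 did not have both boundaries listed, so they have no intron mean. Among the MSH3 introns with a mean, intron 23, the last, was at 10% or more in both DMSO groups. Intron 22 was at 6.48% in WT DMSO and 15.5% in Y36C DMSO. The 3′ boundary of intron 23 was 0% to 40% in WT DMSO (median 18.1%), 0% to 42.9% in Y36C DMSO (median 0%) and 0% to 20% in Y36C E7107 (median 0%), and 0% in the 3 WT E7107 samples with reads. These ranges overlapped, and the DMSO groups differed by -1.5 (SE 1.01, adjusted p = 0.74). Among the introns with a mean, intron 17 had the highest rise in Y36C cells, 0% in all 6 DMSO samples against 4.24% ± 5.01 in E7107. It did not pass the filter on low values.

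The genotypes were also set against each other, and the shares of rows called were near or below those over all rows. For the 37 introns of MLH3, MSH6, PMS1 and PMS2 with reads at both ends in all samples, the change in WT cells ran from a fall of 26.2 percentage points at PMS1 intron 10 to a rise of 67.6 at PMS2 intron 14. In Y36C cells it ran from -1.61 at MSH6 intron 4 to 8.75 at PMS1 intron 10. Between the E7107 groups, 4 of 43 boundaries were higher in Y36C and 23 were lower, while 9.6% and 54.1% of all boundary rows were. The 4 higher ones were all in PMS1, and the 23 lower ones were 12 in MSH6, 10 in PMS2 and 1 in PMS1. Of 109 spliced rows, 35 were higher in Y36C E7107 and 12 lower, against 34.9% and 10.9%. In the interaction, 4 of 64 boundaries had a higher change in Y36C cells, all in PMS1, and 20 a lower, 10 each in MSH6 and PMS2, against 6.63% and 42.3%. Of 150 spliced rows, 30 had a higher and 11 a lower change, against 26.3% and 7.19%. These comparisons share samples and are not independent of each other.

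**Figure D4:**
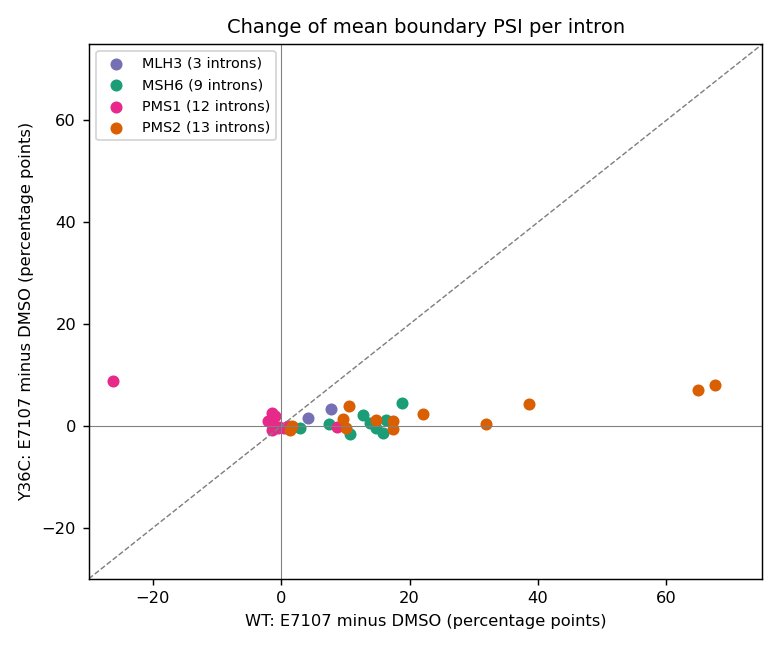
Change in mean boundary PSI under E7107 in WT cells (x axis, percentage points) and in Y36C cells (y axis, percentage points), with 1 point per intron for the 37 introns with reads at both boundaries in all 24 samples, coloured by gene. The dashed line marks equal change. MSH6 and PMS2 introns spread to the right, up to 67.6 points in WT cells, and PMS1 intron 10 stands alone at the left, with -26.2 points in WT and 8.75 in Y36C cells.

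In Y36C cells, skipping of 1 exon each in MLH3, MSH6, PMS1 and PMS2 rose. Of 140 rows that join exons of a reference transcript across at least 1 exon, 31 were tested in Y36C cells, of which 8 rose and 0 fell. In WT cells 17 were tested, of which 1 rose and 0 fell. The share over all exon-skipping rows of the series was not computed, but in 19 other genes of the pathway 49 of 110 rose in Y36C cells and 19 of 104 in WT cells, and no excess in the 5 genes is read from their count. The 8 rows were both ends of 4 junctions.

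MLH3 exon 7 had the highest usage of its skipping junction among the 4. At the 5′ site of exon 6, the junction to exon 8 had a PSI of 8.33% to 50% in WT DMSO (median 39.2%), 27.8% to 60% in Y36C DMSO (median 47.2%) and 60% to 88.2% in Y36C E7107 (median 76.1%). The rise in Y36C cells was 1.33 (SE 0.29, adjusted p = 0.0088) at this site and 1.42 (SE 0.32, adjusted p = 0.0099) at the 3′ site of exon 8. In the 4 WT E7107 samples with reads it ranged from 0% to 100%. Skipping of MLH3 exon 5 was also a feature without drug, at 9.09% to 41.2% in WT DMSO (median 37.6%) and 13.3% to 40% in Y36C DMSO (median 29.4%). In Y36C E7107 it was 23.1% to 56.2% (median 48.5%), and its change did not pass the test (0.75, SE 0.29, adjusted p = 0.10).

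PMS2 exon 4 was skipped in Y36C E7107. The junction from exon 3 to exon 5 had a PSI at the 3′ site of 0% to 17.6% in Y36C DMSO (median 2.56%) and 17.6% to 24.4% in Y36C E7107 (median 21.7%), where 1 DMSO sample reached the lower end of the E7107 range, with a log odds change of 1.79 (SE 0.45, adjusted p = 0.017). In WT E7107 5 of 6 samples were at 0% and the other at 15%. The change differed between the genotypes, with an interaction of 2.84 (SE 0.67, adjusted p = 0.0015). The copies of these sites on chromosome 7 apply here as well.

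PMS1 exon 7 rose from low levels. The junction from exon 6 to exon 8 was used at 4.17% to 9.26% in Y36C DMSO (median 5.88%) and 10.6% to 32.4% in Y36C E7107 (median 17.7%) at the 5′ site, without overlap. The change was 1.09 (SE 0.23, adjusted p = 0.0064), and the interaction was 1.72 (SE 0.61, adjusted p = 0.029). In WT cells the junction was at 1.56% to 6.56% in DMSO (median 5.36%) and 0% to 16.7% in E7107 (median 1.85%), with no call (adjusted p = 0.39).

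In MSH6 the skipped exon was exon 9, of 200 bases. The junction from exon 8 to exon 10 rose from 0% to 1.69% in Y36C DMSO (median 1.03%) to 2.17% to 3.10% in Y36C E7107 (median 2.92%), a change of 0.82 (SE 0.18, adjusted p = 0.0075). The interaction was 1.43 (SE 0.35, adjusted p = 0.0022).

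A skipping junction with the reverse pattern was found in MLH3 and is outside the rule for named rows, chosen after its values were seen. The junction from exon 10 to exon 12 was at 0% in all WT DMSO samples, 0% to 50% in WT E7107 (median 25%) and at most 5.41% in both Y36C groups at the 5′ site, with an interaction of -2.82 (SE 0.92, adjusted p = 0.017). Another junction outside the rule, in PMS2, was also chosen after its values were seen. It joins a 5′ site inside exon 4 to exon 5, and its PSI at the 3′ site of exon 5 went from 0% to 3.39% (median 0.806%) to 0% to 25% (median 7.74%) in WT cells (adjusted p = 0.039) and from 1.64% to 3.92% (median 2.87%) to 0% to 2.08% (median 0%) in Y36C cells (adjusted p = 0.0030). The window of that 3′ site had 14 near-identical copies, which apply here as well. Since both junctions were chosen for their values, the values are a description.

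**Figure D5:**
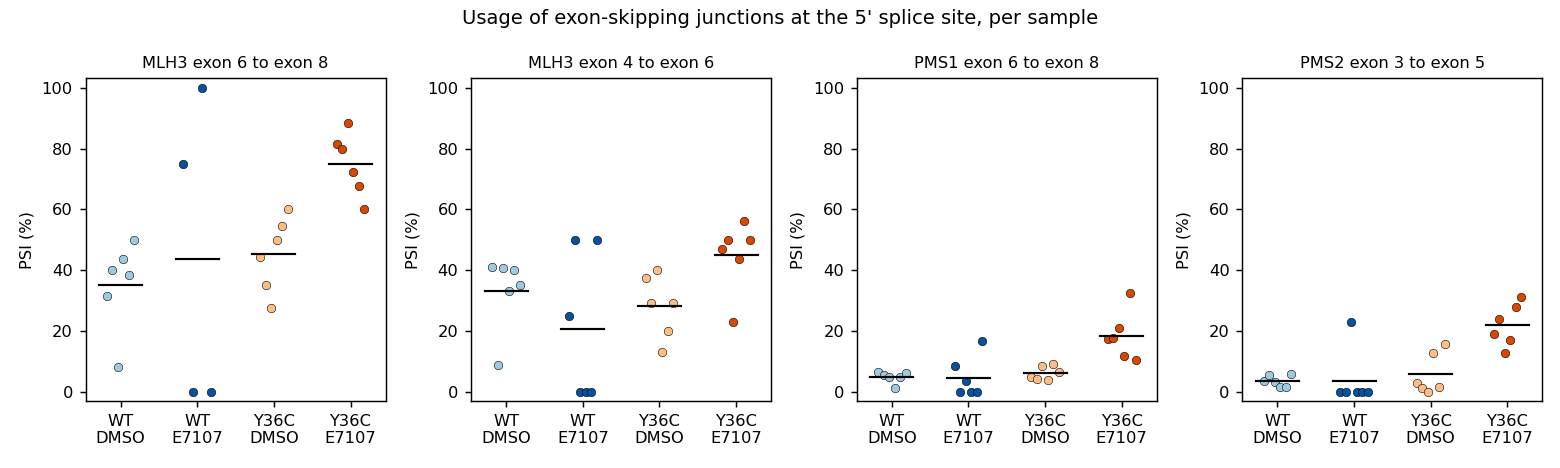
Usage of 4 exon-skipping junctions (y axis, PSI in percent at the 5′ splice site) in each sample of the 4 groups (x axis), with a bar at the group mean. Y36C E7107 has the highest group median for MLH3 exon 6 to 8 (60% to 88.2%), PMS1 exon 6 to 8 (10.6% to 32.4%) and PMS2 exon 3 to 5 (13.0% to 31.4%), while WT E7107 has 4 samples with reads at the first junction.

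Without drug, few differences between the genotypes were called. Of 57 boundaries tested, 0 were higher and 0 lower in Y36C DMSO than in WT DMSO by limma, with 3 at an unadjusted p under 0.05, against 0.0893% and 0.0696% of all boundary rows. Of 182 spliced rows, 1 was higher and 0 lower, with 11 at an unadjusted p under 0.05, against 0.0785% and 0.0746%. The 1 row was the splicing of MSH6 intron 7 at its 5′ site, at 95.3% to 98.3% in WT DMSO (median 97.4%) and 99.0% to 100% in Y36C DMSO (median 100%), a log odds difference of 1.12 (SE 0.18, adjusted p = 0.043). It missed the threshold under 5 of 6 alternative settings (adjusted p from 0.0516 to 0.295). The 5′ boundary of the same site was 0% to 0.962% in Y36C DMSO and rose to between 0.990% and 3.16% in Y36C E7107 (0.87, SE 0.17, adjusted p = 0.0050), close to its 1.71% to 4.71% in WT DMSO.

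Several forms outside the reference transcript were part of the baseline in both lines. Besides the skipping of MLH3 exons 5 and 7, a PMS2 junction from exon 1 to a second 3′ site 5 bases inside exon 2 took 13.6% to 23.3% of the reads at its 5′ site in WT DMSO (median 16.5%) and 9.62% to 19.6% in Y36C DMSO (median 11.7%). It did not change under E7107 by the test in either genotype (adjusted p = 0.51 and 1). The 3′ window of PMS2 intron 1 had 13 other places with 90 or more identical bases. Whether reads from these copies entered the values was not tested.

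The introns also differed in base composition and length. Median GC content was 44.03% in PMS2 introns, 40.8% in MLH3, 39.2% in MSH6, 37.8% in MSH3 and 36.5% in PMS1, and median intron length was 2098, 1613, 1224, 5060 and 6381 bases. Across the 37 introns, the WT change in boundary PSI had a Pearson r of 0.515 and a Spearman rho of 0.491 with intron GC content, and 0.333 and 0.552 with the GC content of the next exon. Without PMS2, the values over 24 introns were 0.106 and 0.172 for intron GC and 0.444 and 0.540 for exon GC. These describe introns of 4 genes that share samples and are no test. In Y36C cells r with intron GC content was 0.164 and rho 0.037. The share of pyrimidines in the 20 bases before the final AG gave r of -0.126 and rho of -0.007 with the WT change, and -0.390 and -0.370 with the Y36C change. Intron length gave r of -0.210 and rho of -0.398 with the WT change, and -0.307 and -0.566 without PMS2. With the Y36C change it gave -0.115 and -0.067.

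Other genes of mismatch repair and of the excision and resynthesis that follow it gave a setting for these values. Their 19 genes had 465 reference boundaries, of which 398 were tested in WT cells, with 196 higher and 27 lower under E7107. In Y36C cells 75 of 315 were higher and 3 lower. Of all boundary rows tested, 59.8% were higher and 4.62% lower in WT cells, and 17.4% and 0.835% in Y36C cells. The exonuclease EXO1 rose at 27 of 28 boundaries with a median change of 33.3 percentage points, the clamp loader subunit RFC1 at 41 of 42 with 38.7, RFC3 at 16 of 16 with 21.9 and the clamp PCNA at 10 of 10 with 20.7. Others had boundaries called in both directions: the polymerase subunit gene POLD1 had 8 higher and 8 lower of 48, the ligase gene LIG1 had 7 higher and 11 lower of 47, and the meiotic MutS gene MSH5 had 1 higher and 7 lower of 43. Over the boundaries that passed the filter, the median change was 34.1 points in PMS2 (17 boundaries), 13.4 in MSH6 (17) and -3.73 in PMS1 (5). The 3′ boundaries of PMS1 introns 9 and 10, at 0% in all 6 WT E7107 samples, passed through their DMSO values alone. PMS2 boundaries near 0 in DMSO passed mainly through E7107. The filter thus shapes these medians, and the genes are not ranked by them.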

How the data were processed

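The files hold percentages: per the labels and the methods, the authors aligned reads with STAR to hg19 and deposited, for each sample, the percent spliced in of every junction and exon–intron boundary, that is, its share of the reads at a shared splice site. Files had 1830076 rows each. Values of a site sum to 100 within 0.0002, or are all 0 where a sample had no reads, which was read as missing. Here 6433 rows were left out, and 588841 boundary and 1234802 spliced rows remained. Read totals are unknown, so low-depth values such as 0% or 100% are coarse.

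Samples were grouped by the labels, and every comparison used limma 3.58.1 in R 4.3.3 on natural-log odds with an offset of 1 percentage point, adjusted by Benjamini–Hochberg over all rows that passed. The comparisons were E7107 against DMSO within each genotype, Y36C against WT within each treatment, and the interaction over 24 samples. The fit was checked on simulated shifts. Alternatives were PSI in percent, offsets of 0.1 and 5, no filter, PSI above 0 in all 6 samples of a group, a replicate block and a change of at least 10 points.

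Named were the introns of each gene with the highest and lowest rise in WT cells and the highest in Y36C cells, up to 2 called skipping junctions with the largest rise per gene and genotype, introns and non-reference junctions at 10% or more in both DMSO groups, rows called between the DMSO groups, and introns with the largest genotype difference. PMS2 introns 2, 7, 10, 11 and 12, MSH6 introns 4 and 7, PMS1 introns 6 and 9, the MLH3 junction from exon 10 to 12 and the PMS2 junction inside exon 4 were chosen after their values were seen. The members and lists were chosen with earlier results of these data known. Gene models are GENCODE on GRCh37 and near-identical copies were searched in the same genome.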

Additional observations from a re-analysis of the deposited data

Results flagged for a closer look

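In 26 of 139 groups of 6 samples checked for the named rows, 1 sample stood apart from the other 5 by Dixon's test. For normally distributed values, chance alone does this in about 1 in 20 groups. In many of the 26 the other 5 samples were all at 0%, where any value above 0 is flagged. The count can therefore not be set against that rate. All values are PSI.

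In MLH3 the highest sample stood apart at intron 12, with 25% at the 3′ and 20% at the 5′ boundary in WT E7107, 3.57% at the 3′ boundary in Y36C E7107 and 5.88% at the 5′ boundary in Y36C DMSO, each against 0% in the next sample. At the 5′ boundary of MLH3 intron 1, 1 Y36C E7107 sample reached 76.9%, and the next was at 62.5%. For the junction from MLH3 exon 4 to exon 6, 1 WT DMSO sample was low, at 9.09% at the 5′ and 5.88% at the 3′ site. In MSH3 the samples apart were at 28.6% in WT DMSO and 11.1% in Y36C E7107 at the 3′ boundary of intron 17, and in Y36C E7107 at 11.1% and 20% at the 5′ and 3′ boundaries of intron 23.

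In MSH6 1 WT E7107 sample was at 33.3% at the 3′ boundary of intron 8, with the next at 20.4%. The 5′ boundary of MSH6 intron 1 had 1 sample at 4.35% in WT E7107 and 1 at 0.855% in Y36C E7107, and the junction from exon 8 to exon 10 had 1 WT E7107 sample at 4% at the 3′ and 3.03% at the 5′ site. In PMS1 the samples apart were at 4.44% in WT E7107 and 2.5% in Y36C E7107 at the 3′ boundary of intron 1, at 7.69% in WT E7107 and 43.5% in Y36C E7107 at the 5′ and 3′ boundaries of intron 10, and at 1.56% in WT DMSO for the junction from exon 6 to exon 8. In PMS2 they were at 47.8% in Y36C DMSO at the 5′ boundary of intron 14, at 23.1% in WT E7107 and 1.89% in Y36C DMSO at the 3′ and 5′ boundaries of intron 3, and at 23.1% and 15% in WT E7107 at the 5′ and 3′ sites of the junction from exon 3 to exon 5.

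The effect of E7107 differed between the genotypes by the limma interaction at 5 boundaries named for the largest genotype difference. On the log odds scale the Y36C change minus the WT change was -2.34 at the 3′ boundary of MSH6 intron 5, 3.74 and 4.04 at the 5′ and 3′ boundaries of PMS1 intron 10, and -4.23 and -3.54 at the 5′ and 3′ boundaries of PMS2 intron 14. Since these were picked for their genotype difference, the values are a description.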

How the results depend on the processing

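Of 140 counts of called rows recomputed under an alternative, 119 stayed within 1.5 times the reported count, and no called result turned its direction. The uncalled Y36C change at the 5′ boundary of PMS2 intron 14 went from -0.445 on the log odds scale to 0.728 percentage points with PSI in percent. With PSI in percent, spliced rows higher in WT E7107 went from 8 to 5 and boundaries higher in Y36C E7107 from 6 to 3. With no filter the latter were 3, spliced rows lower in Y36C E7107 went from 12 to 7, and boundaries higher in Y36C than in WT E7107 from 4 to 7. With an offset of 0.1, spliced rows higher in Y36C E7107 went from 8 to 4, the interaction boundaries lower from 20 to 11 and the interaction spliced rows higher from 30 to 19. With a change of at least 10 points, spliced rows higher in WT E7107 were 2, boundaries and spliced rows higher in Y36C E7107 2 and 5, boundaries higher and spliced rows lower in Y36C than in WT E7107 2 and 6, and interaction boundaries higher 2. With PSI above 0 in all 6 samples of a group, 1 boundary was lower in Y36C DMSO in place of 0. The 1 spliced row higher in Y36C DMSO became 0 under PSI in percent, either offset, no filter, the replicate block and the 10-point minimum. The cause was not tested.

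Among single rows, 19 alternatives lost a call and 4 gained one. An offset of 0.1 lost the Y36C calls for skipping of PMS2 exon 4 (adjusted p = 0.0594 and 0.0571) and MSH6 exon 9 (0.0556 and 0.0566) and for the 3′ boundary of MLH3 intron 1 (0.0569, and 0.103 with no filter), all by limma. The PMS2 change in WT cells was 25.3 points over 27 boundaries and 16.4 over the 9 without a near-identical copy, an alternative chosen after seeing the data.

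Samples with the same replicate number did not deviate together (correlations from -0.00634 to 0.00701 over 499421 rows), so the numbers were not used as pairs. With the replicate block, boundaries higher and lower in WT E7107 were 23 and 3, and 5 were higher in Y36C E7107. It lost the Y36C calls at the 5′ boundary of MLH3 intron 1 (adjusted p = 0.0875), for MLH3 exon 7 at the 5′ site (0.0824) and for MSH6 exon 9 at the 3′ site (0.0505), by limma. It gained the Y36C call at the 3′ boundary of MSH6 intron 8 (0.00803) and the WT call at that of MSH6 intron 1 (0.0447). It also lost the WT call for PMS1 exon 10 (0.139) and the DMSO call at MSH6 intron 7 (0.295).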
